A study of Taeniopygia guttata with 2 samples.

Results

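Cluster 3 is 1 of the 23 clusters that the authors drew over both libraries of the study, and its members are the nuclei to which their combined table gives that number. It held 1914 of 27245 nuclei, 1049 of 12956 in the library labelled shFoxP2 and 865 of 14289 in the library labelled shScr. Each library is 1 pool of Area X tissue punches from 2 adult male zebra finches aged 160 to 185 days post hatch. The birds carried an adeno-associated virus, delivered to Area X, with hairpins against FoxP2 (shFoxP2) or with a scrambled hairpin (shScr). Tissue was taken in the dark, shortly before light onset, after some days of reversed lighting, and the protocol names no sorting of infected nuclei. Because each condition is 1 pooled library, no test was made between conditions or between clusters, values are given for each library, and the intervals below, at the 95% level, cover counting error only.

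Area X is the part of the songbird basal ganglia that serves song, and most of its neurons are medium spiny neurons, inhibitory cells that receive cortical and dopaminergic input. In mammals these cells form a direct pathway, which carries D1-type dopamine receptors and tachykinin and projects to the output nuclei, and an indirect pathway, which carries the D2 receptor (DRD2), an adenosine receptor (ADORA2A) and enkephalin (PENK). In the zebra finch tables the transcription factors FOXP2 and EBF1 marked one main cluster and DRD2 the other. Summed over its nuclei, Cluster 3 carried all of these genes, with most FOXP2 and EBF1 UMIs in its deepest nuclei. The question put to it was which of its genes a sum of the 2 main clusters does not give.

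The reference clusters were Cluster 1, indirect-like by its markers (2877 nuclei in shFoxP2 and 3625 in shScr), and Cluster 2, direct-like by its markers (2737 nuclei in shFoxP2 and 3714 in shScr). Median depth in Cluster 3 was 3183 unique molecular identifiers (UMIs) per nucleus in the library labelled shFoxP2, against 2766 in Cluster 1 and 2750 in Cluster 2. It was 2656 in shScr, against 2219 in Cluster 1 and 2138 in Cluster 2. By the median, Cluster 3 was therefore only somewhat deeper than its references and shallower than Cluster 5, whose medians were 5344 and 4278. The upper quartiles lay further apart, at 4462 and 3868 in Cluster 3, 3118 and 2562 in Cluster 1, and 3125 and 2432 in Cluster 2. The summed UMIs of Cluster 3 were 3849292 and 2708687. The libraries shared 47 barcodes, 0 of them with both copies in Cluster 3. In the separate clustering of the shScr library, 790 of the 865 nuclei (91.3%) fell into its cluster 4 and 46 (5.32%) into its cluster 3, so the number 3 stands for different nuclei in the 2 tables.

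The 7 medium spiny markers were GAD2, PPP1R1B, FOXP1, MEIS2, DRD2, FOXP2 and EBF1. They summed to 85.5 and 86.9 UMIs per 10000 UMIs in Cluster 3 (library labelled shFoxP2, then shScr, here and below). The sums were 83.7 and 87.2 in Cluster 1, and 106 and 103 in Cluster 2. In Cluster 3, FOXP1 (43.7 and 44.8) and MEIS2 (25.8 and 24.2) gave most of the sum. Both references are medium spiny clusters, and DRD2, FOXP2 and EBF1 were named for Cluster 3 in advance. The markers therefore describe the cluster and do not test its label. The level of DRD2 was 3.43 and 2.91 in Cluster 3, 4.04 and 3.74 in Cluster 1, and 0.169 and 0.196 in Cluster 2. Cluster 3 ranked 2 among the 23 clusters for DRD2, 1 for ADORA2A and 6 for PENK. On the direct side it ranked 14 for FOXP2, 12 for EBF1 and 14 for TAC1. The level of FOXP2 was 2.49 and 2.31 in Cluster 3, 0.508 and 0.441 in Cluster 1, and 10.3 and 8.04 in Cluster 2. The level of EBF1 was 3.39 and 4.25 in Cluster 3, 0.553 and 1.44 in Cluster 1, and 15.0 and 14.7 in Cluster 2. Summed over all nuclei, both direct-side genes thus lay between the references in each library, nearer to Cluster 1.

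The weighted sum of Clusters 1 and 2 with the highest Poisson likelihood for Cluster 3 took 78.6% of its UMIs from Cluster 1 and 21.4% from Cluster 2 in the library labelled shFoxP2, and 76.1% and 23.9% in shScr. The 3 marker genes entered the fit of the weights, and their closeness to the sum is a description only. In a fit of the nuclei between the depth quartiles, FOXP2 was at log2 ratios of -0.71 and -0.69 and EBF1 at -0.90 and -0.75. Over all nuclei they lay nearer to it. For FOXP2, 958 UMIs were observed against 1007 in the sum in the library labelled shFoxP2, and 626 against 612 in shScr. For DRD2, the log2 ratio of observed over sum was 0.10 and 0.01. For EBF1, it was -0.11 and -0.11. The dopamine receptor DRD5 was near the sum, with log2 ratios of 0.08 and -0.02, and DRD1 was slightly under it, with -0.24 and -0.21. DRD5 was at 1.18 and 1.75 in Cluster 1 and 1.21 and 1.64 in Cluster 2. DRD1 was at 0.912 and 1.45 in Cluster 1 and 1.14 and 1.52 in Cluster 2. The references differ little for both receptors, so their place against the sum depends little on the weights.

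Many other genes were not given by the sum. Over the 6694 genes with at least 200 observed plus expected UMIs, the log2 ratio of observed over sum had an SD of 0.42 and 0.45, where counting error alone gives 0.14 and 0.16. A gene was called above or below the sum when its ratio passed 1.25-fold in the same direction in both libraries. That held for 530 genes above (7.92% of the genes tested) and 407 below (6.08%), and 276 and 134 of these passed 1.5-fold. The call describes these 2 libraries and is not a test. No choice of weights could give most of these genes, because 506 of the 530 (95.5%) had a higher level in Cluster 3 than in either reference, in both libraries, and 374 of the 407 (91.9%) had a lower one. These shares follow in part from the call. Where the references are alike, passing it already places a gene outside both. The same share over all genes tested was not taken. Across genes, the ratios of the 2 libraries had a Pearson correlation of 0.82. The genes are not independent replicates, and both ratios use the same cluster assignment.

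**Figure D1:**
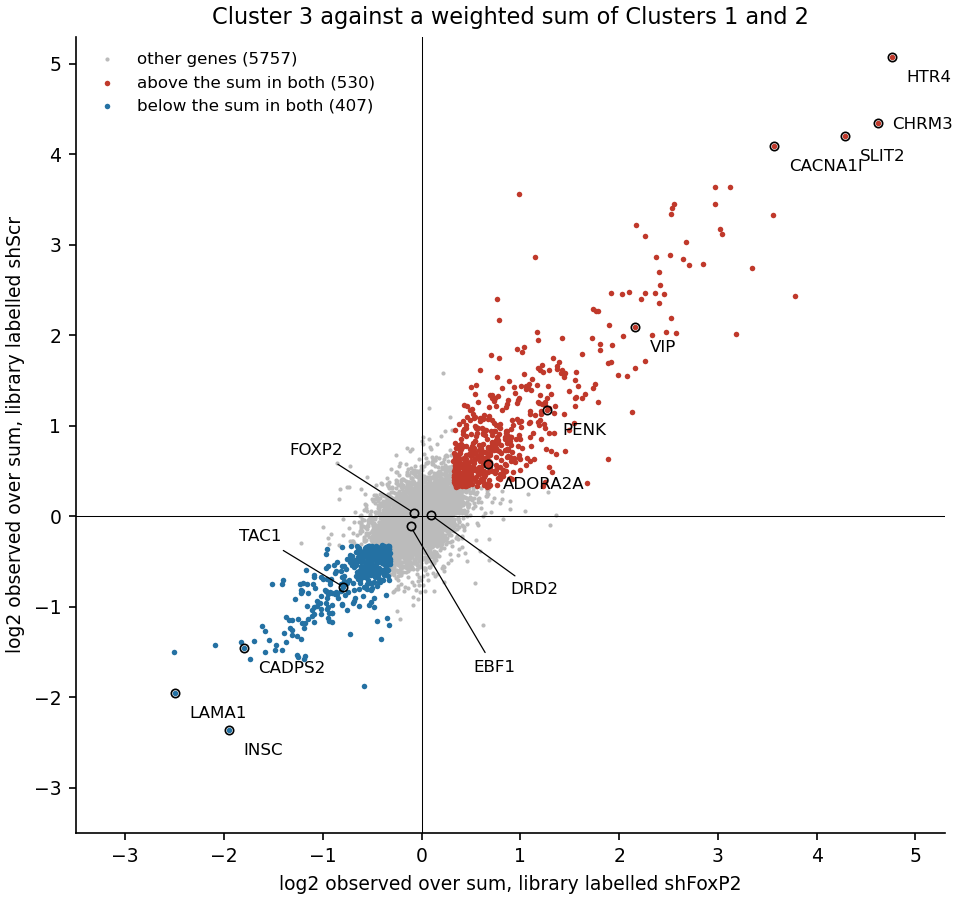
Each point is 1 of 6694 genes, placed by the log2 ratio of its UMIs in Cluster 3 over the weighted sum of Clusters 1 and 2, with the library labelled shFoxP2 on the x axis and shScr on the y axis. The 530 genes above the sum in both libraries are red and the 407 below it are blue; FOXP2, EBF1 and DRD2 lie near 0 on both axes, while HTR4, CHRM3 and SLIT2 lie above 4.

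The genes named furthest above the sum had low levels in both references. The gene with the largest ratio in the weaker library was HTR4, a serotonin receptor that couples to cAMP production. HTR4 had a level of 0.894 and 0.683 in Cluster 3, 0.0343 and 0.0195 in Cluster 1, and 0.0282 and 0.0223 in Cluster 2. Its log2 ratio over the sum was 4.76 (4.29 to 5.23) and 5.08 (4.51 to 5.65), and no other cluster had a higher level. In Cluster 4, a smaller direct-like cluster described below, HTR4 was at 0.516 and 0.385, far above both references. CHRM3, a muscarinic acetylcholine receptor that couples to calcium release, had a level of 1.67 and 1.67 in Cluster 3, 0.0685 and 0.0827 in Cluster 1, and 0.0663 and 0.0809 in Cluster 2. Its log2 ratio was 4.62 and 4.34, and Cluster 3 ranked 6 of 23, with the highest level, 8.52 and 8.09, in Cluster 12. CHRM3 in Cluster 4 was at 0.561 and 0.775.

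SLIT2, a secreted axon guidance cue that binds ROBO receptors, had a level of 0.829 and 0.694 in Cluster 3, 0.0402 and 0.0379 in Cluster 1, and 0.0503 and 0.0375 in Cluster 2, with log2 ratios of 4.29 and 4.20. CACNA1I, a T-type calcium channel subunit, had log2 ratios of 3.57 and 4.10. NOX4, an NADPH oxidase that produces reactive oxygen, had 3.55 and 3.33, and Cluster 3 had the highest level of it among the 23 clusters. The other genes named furthest above the sum were the prostaglandin F receptor PTGFR, the ALK receptor ligand ALKAL1, the GDNF-family receptor RET, the secreted semaphorin SEMA3A, the AMPA receptor subunit GRIA4 and the Ras-like GTPase RIT2. Their log2 ratios ran from 2.75 for RIT2 in shScr to 3.64 for PTGFR in shScr. In each of these 11 genes, both libraries of Cluster 3 lay above both libraries of Clusters 1 and 2. This follows largely from their choice by the ratio in the weaker library. Cluster 3 had the highest level of all 23 clusters for 35 of the 530 genes above the sum, and Cluster 4 for 40 of them. The share over all genes tested was not taken, so these counts are not read as a result about Cluster 3.

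The counts behind these levels are small per nucleus. With each nucleus thinned to 2000 UMIs, a UMI of HTR4 was found in 169 of 1034 nuclei of Cluster 3 in the library labelled shFoxP2 (16.3%, Clopper-Pearson 14.1 to 18.7) and in 90 of 754 in shScr (11.9%, 9.71 to 14.5). In Cluster 1 the shares were 0.632% and 0.225%, and in Cluster 2 they were 0.628% and 0.456%. In Cluster 4 they were 9.09% (93 of 1023) and 7.17% (42 of 586), so HTR4 was not particular to Cluster 3. Thinning left out 15 and 111 nuclei of Cluster 3, and the unthinned shares were 25.5% and 17.2%. The astrocyte-like Cluster 6 had the highest SLC1A2 level of the 23 clusters (98.2 and 113, against 1.30 and 1.23 in Cluster 3) and median depths of 1703 and 1550 UMIs. Its thinned HTR4 shares were 1.22% (2 of 164) and 1.30% (1 of 77). Thinning left out 511 of its 675 nuclei and 454 of its 531. The part of free RNA in these shares was not tested. CHRM3 had a UMI in 15.4% and 17.4% of the thinned nuclei of Cluster 3, against 1.54% and 1.27% in Cluster 1 and 1.29% and 1.24% in Cluster 2.

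The genes furthest below the sum were expressed in both references or mainly in Cluster 1. LAMA1, a laminin chain of the basement membrane, had a level of 0.494 and 0.620 in Cluster 3, 3.53 and 3.09 in Cluster 1, and 0.0920 and 0.216 in Cluster 2. Its log2 ratio over the sum was -2.50 (-2.71 to -2.29) and -1.95 (-2.18 to -1.73). LAMA1 is thus a gene of the indirect-like main cluster that Cluster 3 carried at a lower level although its DRD2 was near that of Cluster 1. INSC, an adaptor for spindle orientation, was of the same kind, with log2 ratios of -1.95 and -2.37.

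The others were expressed in both references. KITLG, the ligand of the KIT receptor, had a level of 1.49 and 2.64 in Cluster 3, 5.10 and 7.26 in Cluster 1, and 3.92 and 5.57 in Cluster 2, with log2 ratios of -1.70 and -1.38. CADPS2, which primes dense-core vesicles for release, had a level of 4.36 and 5.36 in Cluster 3, 12.6 and 11.9 in Cluster 1, and 24.8 and 23.6 in Cluster 2, with log2 ratios of -1.80 and -1.45. ADARB2, a brain protein of the RNA-editing enzyme family, had log2 ratios of -1.58 and -1.50. The netrin gene NTN1 had -1.74 and -1.58, and the AMPA receptor auxiliary subunit CNIH3 had -1.38 and -1.39. The remaining genes of the 12 were GLIS1, ZNF385D, FKBP5, VIT and ATP10A, with log2 ratios from -2.51 for GLIS1 in the library labelled shFoxP2 to -1.36 for ATP10A in shScr. Except for LAMA1 and INSC, each of the 12 had a lower level in Cluster 3 than in Clusters 1 and 2 of the same library. These genes were chosen by the ratio in the weaker library.

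**Figure D2:**
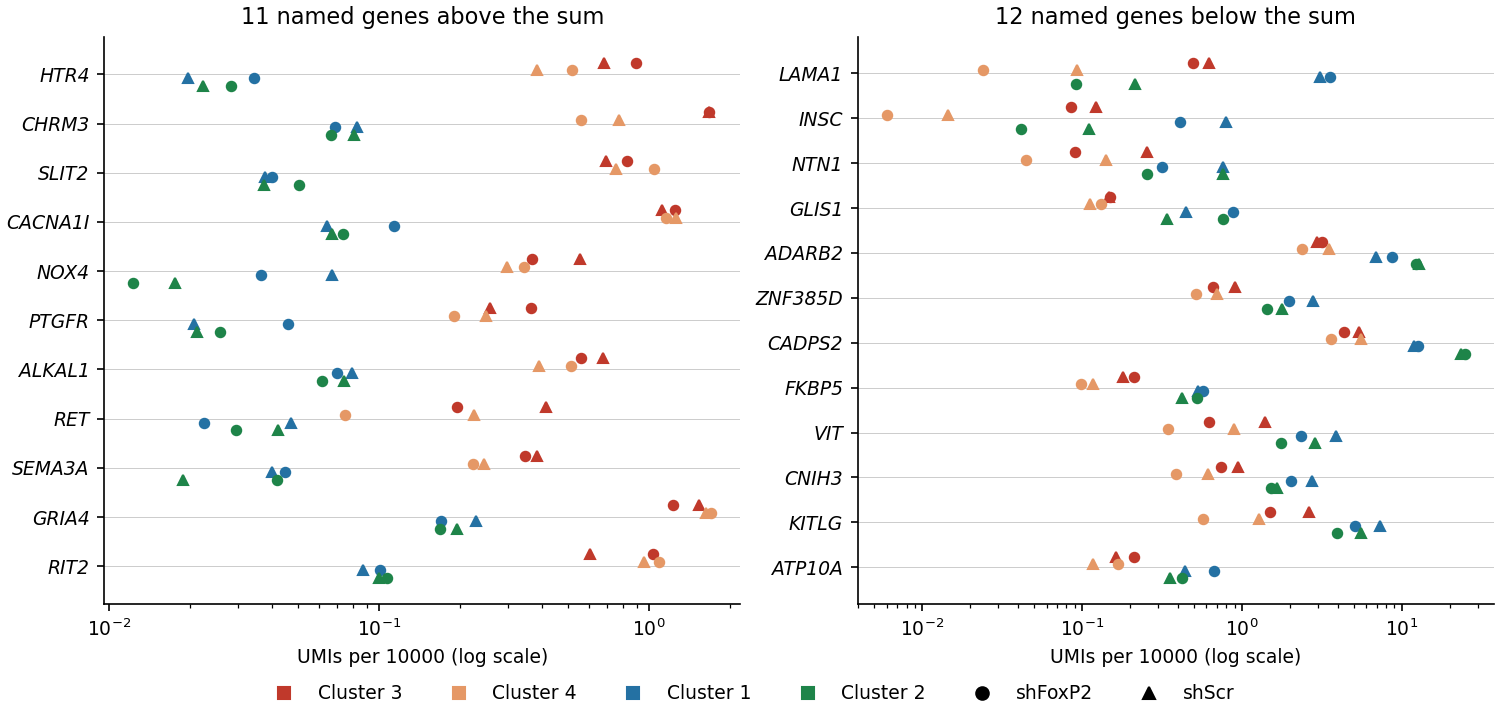
Level in UMIs per 10000 (log scale) of the 11 genes named furthest above the sum (left) and the 12 furthest below it (right) in Clusters 3, 4, 1 and 2; circles are the library labelled shFoxP2 and triangles shScr. HTR4 lies at 0.894 and 0.683 in Cluster 3 and under 0.1 in Clusters 1 and 2, and the points of Cluster 4 lie near those of Cluster 3 for most of the 23 genes.

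Among the pathway genes, 2 of the indirect list were above the sum and 2 of the direct list below it. Over all genes tested, 7.92% were above it and 6.08% below it, and counts this small are not read as results about a list. Of the 11 genes listed for the indirect pathway, 7 could be tested, and PENK and ADORA2A were above the sum and 0 below, with a median log2 ratio of 0.26 over the list, against -0.04 over all genes tested. PENK, the enkephalin precursor, had a level of 3.97 and 3.24 in Cluster 3, 1.78 and 1.51 in Cluster 1, and 1.14 and 1.17 in Cluster 2. Its log2 ratio over the sum was 1.27 (1.18 to 1.37) and 1.18 (1.06 to 1.29). ADORA2A, which raises cAMP on binding adenosine, had a level of 1.44 and 1.51 in Cluster 3, 1.11 and 1.28 in Cluster 1, and 0.125 and 0.127 in Cluster 2, with log2 ratios of 0.68 and 0.58. The kainate receptor subunit GRIK3, also on the indirect list, had 0.38 and 0.13 and did not pass in shScr.

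Of the 13 genes listed for the direct pathway, 9 could be tested, and 0 were above the sum and 2 below it. Their median log2 ratio was -0.11, against -0.04 over all genes tested. TAC1, the tachykinin precursor, had a level of 4.67 and 10.8 in Cluster 3, 6.58 and 16.0 in Cluster 1, and 13.6 and 26.6 in Cluster 2. Its log2 ratio over the sum was -0.79 and -0.78, and its level was lower than in either reference in both libraries. CHRM4, a muscarinic receptor that couples to inhibition of cAMP production and marks direct-pathway cells in mammals, had a level of 1.59 and 1.54 in Cluster 3, 1.88 and 1.36 in Cluster 1, and 5.58 and 4.60 in Cluster 2, with log2 ratios of -0.75 and -0.48. Over all nuclei, FOXP2 and EBF1 were therefore near the sum while TAC1 and CHRM4 of the same list were under it.

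The genes that mark medium spiny neurons of either pathway were close to the sum. Of 14 such genes, 13 could be tested, with a median log2 ratio of -0.08, and RARB alone passed, above the sum. The list counts here stand beside 7.92% above and 6.08% below among all genes tested. RARB, a retinoic acid receptor, had a level of 0.850 and 0.546 in Cluster 3, 0.188 and 0.162 in Cluster 1, and 0.252 and 0.264 in Cluster 2, with log2 ratios of 2.08 and 1.55. The genes said in mice to mark hybrid or eccentric medium spiny neurons did not move as a group. Of the 5 tested of 8 listed, TSHZ1 was above the sum, with log2 ratios of 1.22 and 1.67 at levels of only 0.192 and 0.277. CASZ1, with -0.64 and -0.70, and ADARB2 were below it. Of 6 patch and matrix genes tested of 8 listed, BACH2 and LYPD1 were above the sum and SEMA5B and SV2B below it. Of 16 activity genes 12 were among the gene columns and 3 could be tested, and 0 passed in either direction.

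Markers of other cell types were also compared with the sum, above which 7.92% of all genes tested lay and below which 6.08% lay. The red blood cell genes HBAA and HBAD were both above it, with log2 ratios of 0.94 and 1.37 for HBAA. Their summed level was 2.81 and 2.58 in Cluster 3, 1.504 and 1.01 in Cluster 1, and 1.502 and 0.989 in Cluster 2. Of 6 astrocyte markers tested, 0 were above the sum and SLC1A2, AQP4 and SLC4A4 were below it, and the list summed to 3.37 and 3.14 in Cluster 3, 4.38 and 4.31 in Cluster 1, and 4.16 and 4.24 in Cluster 2. Of 5 interneuron markers tested, CALB2 was below the sum and 0 were above. MBP, a myelin protein of oligodendrocytes, was below the sum, and the 2 oligodendrocyte markers tested gave 0 above it. For oligodendrocyte precursors, endothelial cells and glutamatergic neurons, 1 marker each could be tested and 0 passed in either direction. Microglial markers summed to at most 0.0293 in any of the 3 clusters. Of the direct-like markers, TAC1 was below the sum, and of the indirect-like ones PENK and ADORA2A were above it. Of the pallidal-like markers, PENK and TSHZ1 were above the sum and MEIS2 was not. Mitochondrial transcripts made up 72.2 and 78.9 per 10000 UMIs in Cluster 3, 85.6 and 97.2 in Cluster 1, and 84.7 and 100.2 in Cluster 2. The part of haemoglobin and other free RNA in the ratios above was not tested.

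The genes that set Cluster 3 apart from the sum largely recurred in Cluster 4, a smaller direct-like cluster of 1082 and 778 nuclei. Cluster 4 had a FOXP2 level of 12.7 and 12.8, an EBF1 level of 19.1 and 23.2 and a DRD2 level of 0.213 and 0.205. It thus had more of the direct-side genes than Cluster 3 and little of its DRD2. Of the 530 genes above the sum in Cluster 3, 429 (80.9%) were also at least 1.25-fold higher in Cluster 4 than in Cluster 2 in both libraries, a step that 685 of all genes tested (10.2%) passed, so that the shared genes were 62.6% of those of Cluster 4. Of the 407 below the sum, 261 (64.1%) were also lower in Cluster 4 than in Cluster 2, against 7.35% of all genes tested, and these were 53.0% of those of Cluster 4. Across 6667 genes, log2 of Cluster 3 over Cluster 1 and log2 of Cluster 4 over Cluster 2 had a Pearson correlation of 0.78 in the library labelled shFoxP2 and 0.76 in shScr. These 2 ratios share no nuclei, but they share the libraries, and genes are not independent replicates. With Cluster 4 added as a source of the sum, the log2 ratio in the weaker library was 1.46 for HTR4, 1.77 for CHRM3, 0.35 for SLIT2, 0.15 for GRIA4 and 0.01 for RIT2. In that fit DRD2 was above the sum, with 1.00 and 0.82, FOXP2 was below it, with -1.66 and -1.74, and VIP stayed above it, with 2.50 and 2.49.

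**Figure D3:**
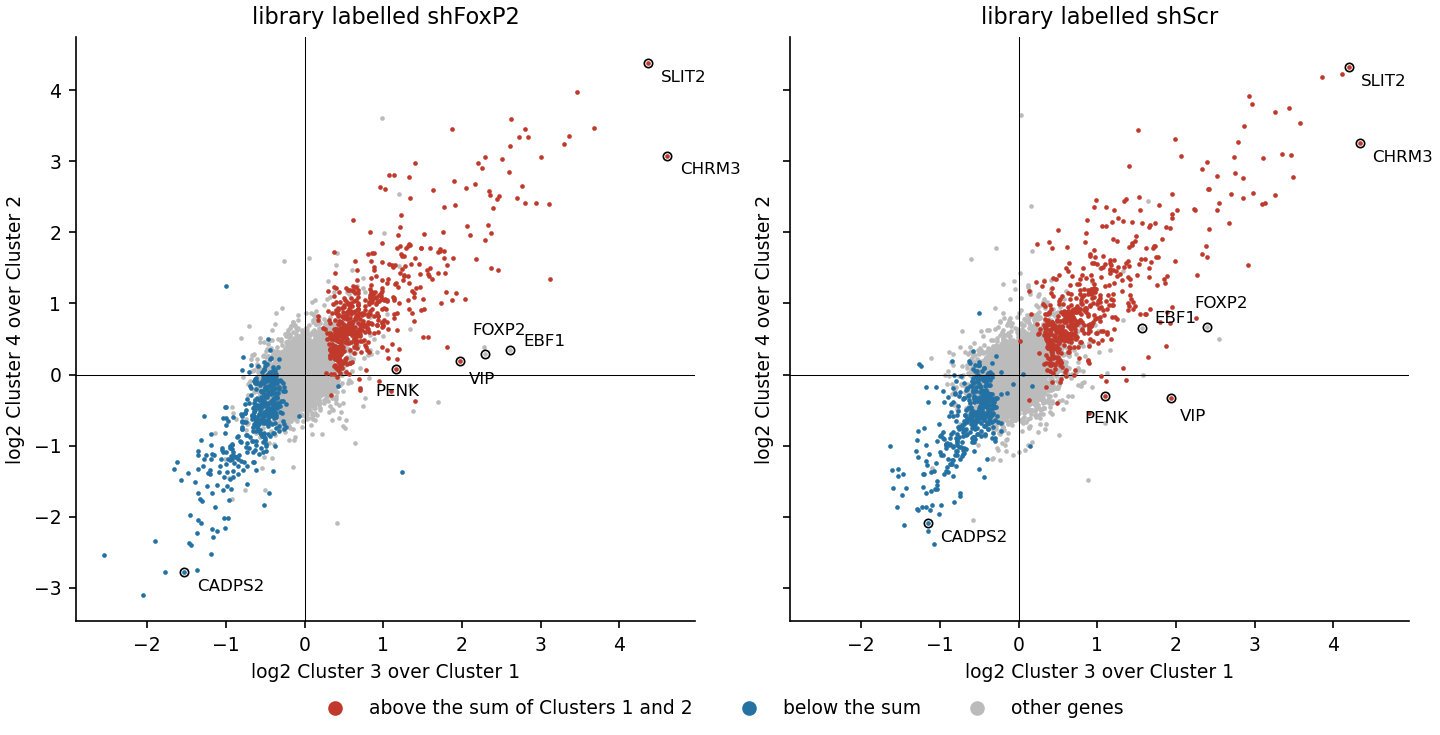
Each point is 1 of 6667 genes with at least 50 UMIs in each of Clusters 1 to 4, placed by log2 of Cluster 3 over Cluster 1 (x axis) and log2 of Cluster 4 over Cluster 2 (y axis) in each library; red genes were above the sum of Clusters 1 and 2 in Cluster 3 and blue genes below it. SLIT2 and CHRM3 are far up on both axes, CADPS2 is far down on both, and VIP and PENK are up on the x axis only.

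Among the genes that Cluster 4 did not share, VIP and PENK had the largest ratios when ranked by the weaker library. Of the 530 genes above the sum, 27 stayed under 1.25-fold in Cluster 4 over Cluster 2 in both libraries. VIP, the vasoactive intestinal peptide precursor, had a level of 1.25 and 1.82 in Cluster 3, 0.317 and 0.475 in Cluster 1, 0.139 and 0.277 in Cluster 2 and 0.159 and 0.219 in Cluster 4, and no other cluster had a higher level. Its log2 ratio over the sum was 2.16 (1.96 to 2.37) and 2.09 (1.92 to 2.27). A UMI of VIP was found in 20.8% and 27.7% of nuclei of Cluster 3 thinned to 2000 UMIs, against 5.93% and 9.10% in Cluster 1 and 3.11% and 5.06% in Cluster 2. The share in the astrocytes of Cluster 6 was 4.88% (8 of 164) and 11.7% (9 of 77). A UMI of PENK was found in 44.7% and 32.5% of the thinned nuclei of Cluster 3, against 28.8% and 22.2% in Cluster 1 and 26.8% and 20.8% in the astrocyte-like nuclei. PENK in Cluster 4 had a level of 1.21 and 0.955, near that of Cluster 2. GUCY1A2, a subunit of the receptor for nitric oxide, had log2 ratios of 0.43 and 0.47 over the sum and its highest level of the 23 clusters in Cluster 3. The haemoglobin genes HBAA and HBAD were also among the 27.

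The direct-side genes FOXP2 and EBF1 of Cluster 3 were concentrated in its deepest nuclei, which did not hold for every gene of the direct list. The nuclei of each library were split into tertiles by their UMIs, with median depths of 2495, 3185 and 5065 UMIs in the library labelled shFoxP2 and of 2063, 2657 and 4364 in shScr. From the lower to the upper tertile, the FOXP2 level was 0.720, 0.783 and 4.36 (4.06 to 4.67) in the library labelled shFoxP2 and 0.431, 0.798 and 3.99 (3.66 to 4.34) in shScr. The EBF1 level was 0.639, 1.03 and 6.12 in the library labelled shFoxP2 and 1.27, 1.62 and 7.04 in shScr. In the same order, FOXP2 in Cluster 1 was 0.525, 0.539 and 0.474 in the library labelled shFoxP2 and 0.402, 0.434 and 0.469 in shScr, so this reference showed no such step across its own tertiles. Its upper tertile was shallower, with median depths of 3348 and 2769 UMIs, nearer to the middle tertile of Cluster 3. Nuclei of like depth were not compared here. EBF1 in Cluster 1 was 0.508, 0.588 and 0.556 in the library labelled shFoxP2 and 1.32, 1.45 and 1.49 in shScr. The lower tertile of Cluster 3 was within 1.5-fold of Cluster 1 for both genes. In the middle tertile FOXP2 in shScr (0.798, 0.612 to 1.02, against 0.434, 0.359 to 0.521) and EBF1 in the library labelled shFoxP2 (1.03, 0.851 to 1.23, against 0.588, 0.499 to 0.688) were above Cluster 1 with intervals apart. Most FOXP2 and EBF1 UMIs of Cluster 3 came from the upper tertile.

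In summed level, the 11 named genes above the sum were lowest in the upper tertile, unlike FOXP2 and EBF1. The summed level of the 11 named genes above the sum was 10.7, 9.97 and 7.04 from the lower to the upper tertile in the library labelled shFoxP2 and 9.44, 10.7 and 6.96 in shScr, against 0.717 to 0.916 in the tertiles of Cluster 1. The summed level of the 12 named genes below the sum was 4.54, 6.70 and 19.3 in the library labelled shFoxP2 and 6.03, 8.10 and 24.2 in shScr, against 39.0 to 41.7 in Cluster 1. Cluster 4 had the same order for the genes below, with 3.81, 5.22 and 12.7 in the library labelled shFoxP2 and 6.22, 8.55 and 19.2 in shScr. DRD2 was 3.93, 3.76 and 3.00 in the library labelled shFoxP2 and 3.32, 3.68 and 2.29 in shScr. VIP was 1.73, 1.56 and 0.832 in the library labelled shFoxP2 and 2.31, 2.50 and 1.22 in shScr. PENK was 4.37, 4.59 and 3.40 in the library labelled shFoxP2 and 2.70, 4.11 and 2.97 in shScr. In shScr the upper tertile of PENK thus lay above its lower one. For the named genes above and below the sum and for VIP, the upper tertile lay between the other tertiles and Cluster 1, whereas for DRD2 it lay under both.

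The weight of Cluster 1 in the sum also differed between the tertiles, and its direction depended on the sources. With Clusters 1 and 2 as sources, it was 90.6%, 88.3% and 68.0% from the lower to the upper tertile in the library labelled shFoxP2 and 90.3%, 86.7% and 65.0% in shScr. With Cluster 4 as a source beside them, it ran the other way, with 30.05%, 34.3% and 46.6% in the library labelled shFoxP2 and 32.5%, 34.0% and 48.6% in shScr, and Cluster 2 took at most 0.430% of the UMIs. Among the 8% of nuclei of each library with the highest doublet score were 4.29%, 6.86% and 15.8% of the tertiles in the library labelled shFoxP2 and 5.54%, 7.64% and 18.8% in shScr. The part of doublets in the upper tertile was not tested. Without the upper tertile, 495 genes were above the sum and 382 below it among 4498 tested, and 386 and 244 of these were also called with all nuclei. In the same fit FOXP2 was below the sum, with log2 ratios of -1.05 and -1.06, and so was EBF1, with -1.29 and -1.02, while PENK (1.40 and 1.25) and VIP (2.46 and 2.42) stayed above it. Haemoglobin HBAA did not follow the depth order, with levels of 2.49, 4.26 and 1.11 in the library labelled shFoxP2 and 1.33, 4.58 and 1.14 in shScr.

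**Figure D4:**
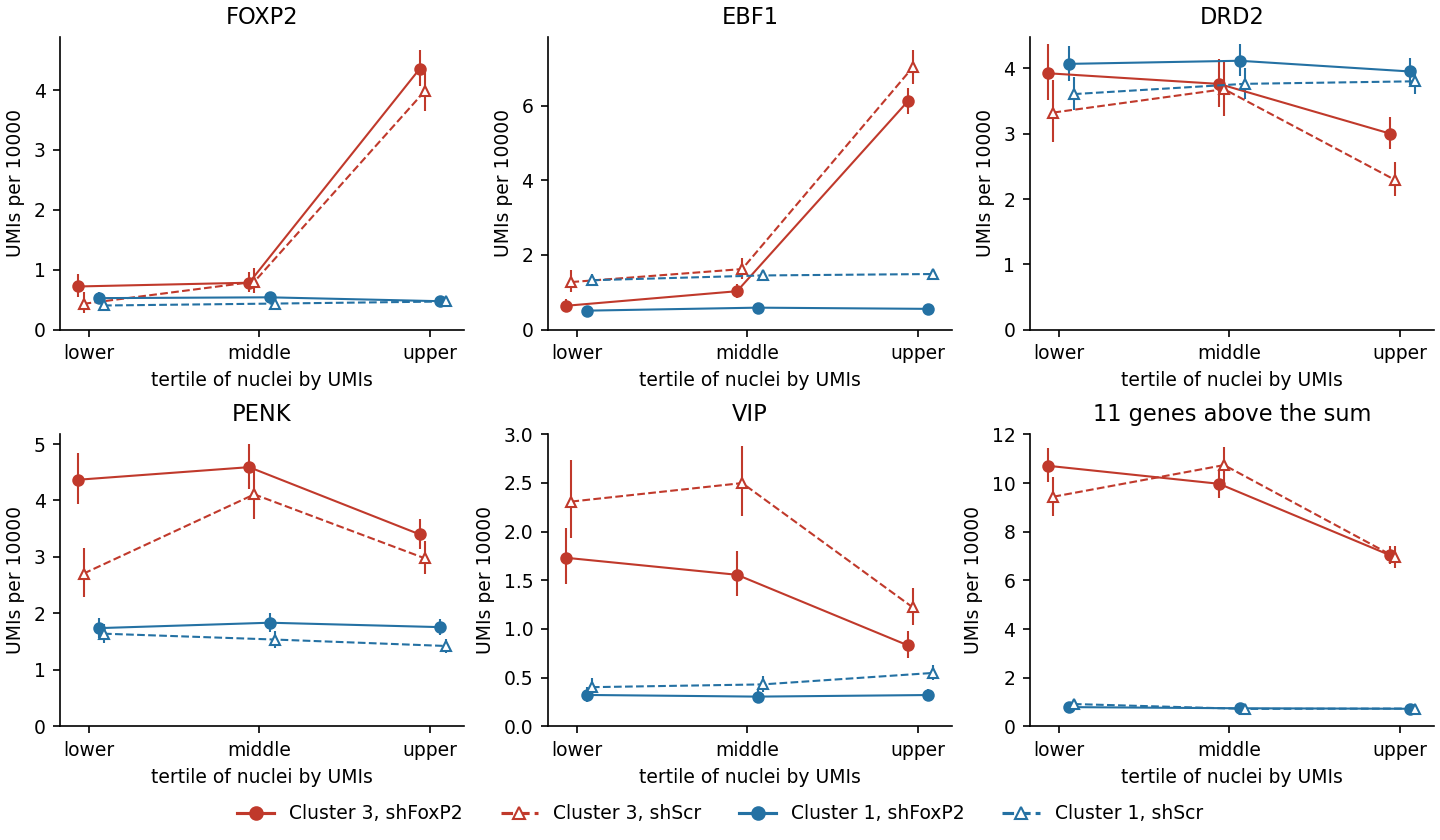
Level in UMIs per 10000 of FOXP2, EBF1, DRD2, PENK, VIP and the 11 genes named furthest above the sum in tertiles of nuclei by depth, in Cluster 3 (red) and Cluster 1 (blue); filled circles and full lines are the library labelled shFoxP2, open triangles and dashed lines are shScr, and bars are exact Poisson intervals. FOXP2 in Cluster 3 stays under 1 in the lower and middle tertiles and reaches 4.36 and 3.99 in the upper one, while the 11 genes are lower there in summed level (7.04 and 6.96) than in the middle one (9.97 and 10.7).

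Single nuclei were then described by the share of direct-side UMIs among 100 genes. Of these, 50 were higher in Cluster 2 than in Cluster 1 and 50 higher in Cluster 1. Nuclei were thinned to 1000 UMIs and the genes were taken from the other library. The genes included FOXP2, EBF1 and DRD2. They also included LAMA1 and INSC on the indirect side, below the sum, and TRPS1, PCDH17 and ZDHHC2 on the direct side, above it. The genes taken from the library labelled shFoxP2 also held SDK1 and PDGFC on the indirect side, above the sum. In that library CFTR was on the direct side, below the sum. The share thus also takes in departures from the sum, and their part in it was not tested. The median share was 25% and 21.4% in Cluster 3, 12.5% and 16.7% in Cluster 1, and 78.6% and 81.8% in Cluster 2. In Cluster 5, whose fitted weights of Clusters 1 and 2 were near even (49.5% and 50.7% from Cluster 1), it was 43.8% and 50.0%. The profile of Cluster 5 also departed from its sum, with 13 of 6712 genes above it and 606 below it in both libraries. Of the nuclei of Cluster 5, 21.5% and 26.1% were among the possible doublets, against 8.96% and 10.6% of Cluster 3. Nuclei of Cluster 3 with a share from 25% to 75% made up 52.3% and 43.4% of it, against 13.6% and 25.5% of Cluster 1 and 42.7% and 28.7% of Cluster 2, and 0.667% and 1.27% of Cluster 3 were over 75%. The range from 25% to 75% held 38.5% and 43.1% of Cluster 4 and 84.9% and 90.1% of Cluster 5. Of the nuclei of Cluster 3 from 25% to 75%, 12.02% and 17.3% were among the possible doublets, against 5.27% and 4.81% of those under 25%. With the 8% highest doublet scores left out, the median share, as a mean of both libraries, was 22.5%, against 23.2% with all nuclei. The part of doublets in the share was not tested further. Between nuclei the share varied 2.04 and 2.60 times as much as binomial sampling gives in Cluster 3, against 1.24 and 1.18 times in Cluster 1 and 1.29 and 1.20 times in Cluster 2. The smaller clusters also varied more than binomial sampling gives, by 1.30 and 1.70 times in Cluster 4 and 1.75 and 1.47 times in Cluster 5. The median share was 35.7% and 38.7% in the upper depth tertile and 21.1% and 17.6% in the rest of Cluster 3. Because the median nucleus had 16 UMIs of the 100 genes, the share of 1 nucleus is coarse.

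**Figure D5:**
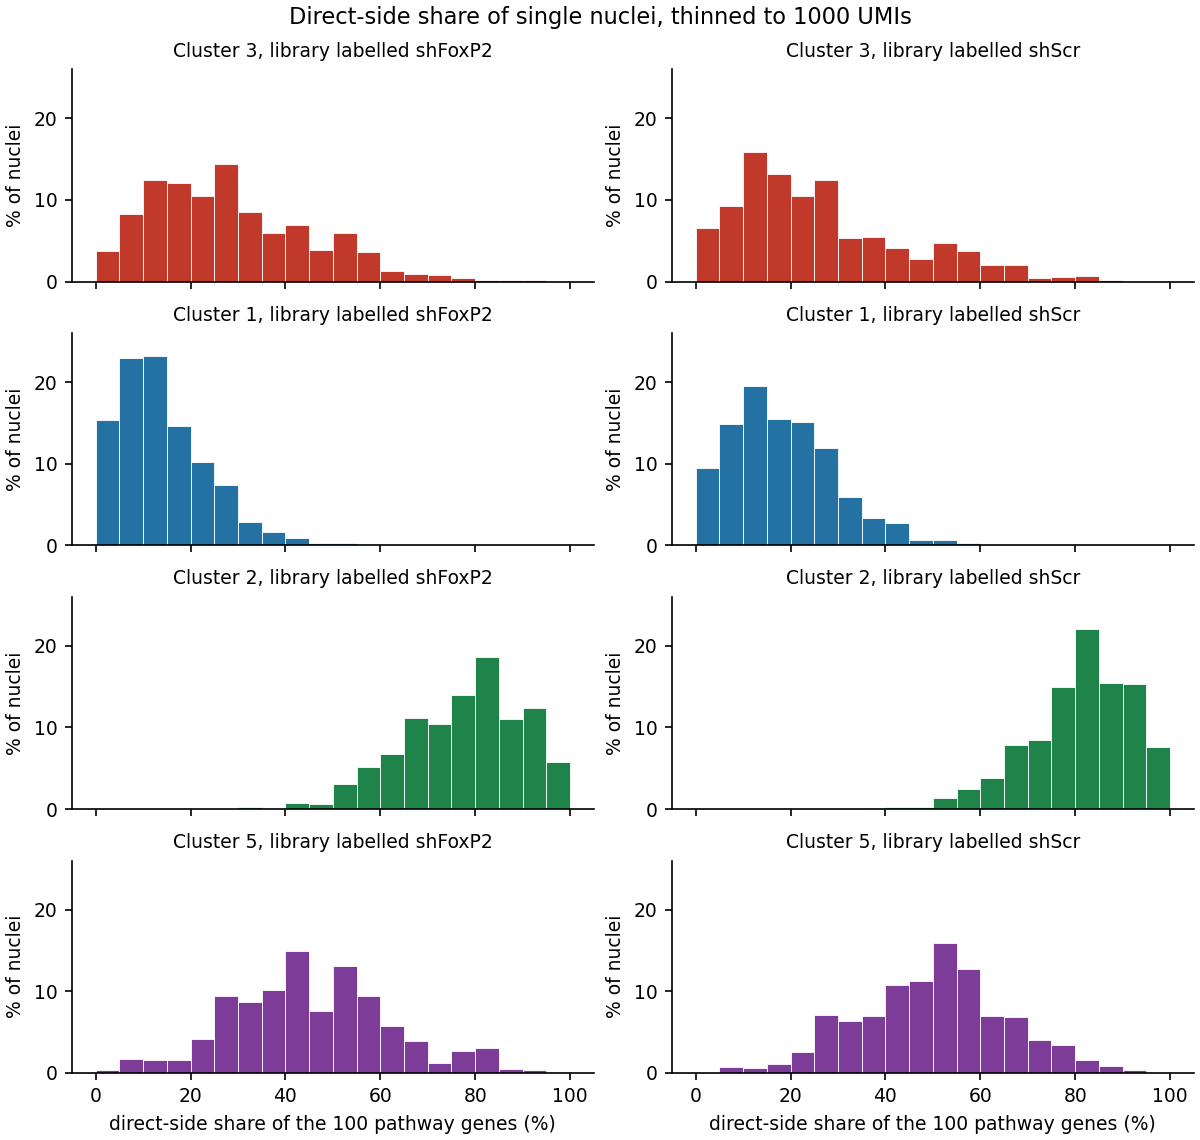
Percent of nuclei (y axis) by direct-side share of the UMIs of 100 pathway genes (x axis, %), nuclei thinned to 1000 UMIs, for Clusters 3, 1, 2 and 5 in the library labelled shFoxP2 (left) and shScr (right). Cluster 3 has medians of 25% and 21.4%, above those of Cluster 1 (12.5% and 16.7%), and a tail through the range of Cluster 5, whose medians are 43.8% and 50.0%.

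DRD2 and FOXP2 were also looked for in the same nucleus. Of the nuclei of Cluster 3 thinned to 2000 UMIs, 48.5% and 42.6% had a UMI of DRD2, and 22.4% and 25.1% one of FOXP2. Both genes were found in 101 of 1034 nuclei in the library labelled shFoxP2 (9.77%, 8.03 to 11.7), where the product of the shares gives 10.9%, and in 63 of 754 in shScr (8.36%, 6.48 to 10.6), where it gives 10.7%. The shares of nuclei with both were 4.81% and 4.42% in Cluster 1, 3.03% and 2.82% in Cluster 2, and 21.8% and 17.6% in Cluster 5. Possible doublets made up 21.5% and 26.1% of Cluster 5, and their part in its share was not tested. In Cluster 3, DRD2 with EBF1 and PENK with FOXP2, like DRD2 with FOXP2, were found less often than the product gives in both libraries. The product lay above the interval for DRD2 with EBF1 in the library labelled shFoxP2 (11.97% against 7.94 to 11.64%). In shScr it did for DRD2 with FOXP2 (10.67% against 6.48 to 10.56%) and PENK with FOXP2 (8.14% against 4.04 to 7.46%). It lay inside in the other library of each pair, and in both libraries without the upper tertile. FOXP2 and EBF1 were found together more often than the product gives, in 11.9% and 16.4% of the nuclei of Cluster 3 against products of 5.53% and 9.11%. With the upper tertile left out, they were found together in 1.75% (0.908 to 3.04) and 4.29% (2.64 to 6.55). The products were then 1.32% and 2.27%, the first of them inside its interval. Without the upper tertile, FOXP2 was found in 74 of 685 nuclei (10.8%) and 53 of 466 (11.4%), against 8.42% and 7.94% in Cluster 1. The thinned astrocytes of Cluster 6 had a FOXP2 UMI in 18.3% (30 of 164) and 20.8% (16 of 77). The share in the lower and middle tertiles of Cluster 3 was below these. Thinning kept only the deepest nuclei of Cluster 6, leaving out 511 of 675 and 454 of 531, and over all of its nuclei, not thinned, the FOXP2 share was 13.0% and 11.7%. The source of the FOXP2 UMIs in Cluster 6 and in the lower and middle tertiles of Cluster 3 was not tested. The FOXP2 share over all of Cluster 3 was higher than in these astrocytes, but the intervals overlapped (19.9 to 25.1% and 12.7 to 25.1% in the library labelled shFoxP2, 22.01 to 28.3% and 12.4 to 31.5% in shScr). DRD2 was found in 4.88% and 3.90% of these astrocytes.

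The study compared the libraries to ask what lower FoxP2 does in Area X. In Cluster 3 the nuclear RNA of the targeted gene was not lower in the library labelled shFoxP2. Its level was 2.49 there, against 2.31 in shScr, a log2 ratio of 0.11 (-0.04 to 0.25), an interval that includes 0. These are UMIs of nuclei, and FoxP2 protein is not measured in these data, so they do not give the extent of the knockdown. The corresponding log2 ratios were 0.20 in Cluster 1 and 0.36 in Cluster 2. Directions between the libraries are therefore those of the labels only. In Cluster 3, the spread of this ratio across the 4356 genes with at least 200 UMIs was 0.35 (SD, log2), and counting error accounts for 0.14. Higher by at least 1.25-fold were 549 genes (12.6%) and lower 656 (15.1%). Of the pathway genes, DRD1 was at -0.65, DRD5 at -0.45, EBF1 at -0.33, TAC1 at -1.21 and DRD2 at 0.24. The sum of Clusters 1 and 2 moved alike for these genes, by -0.61 for DRD1, -0.54 for DRD5, -0.33 for EBF1, -1.20 for TAC1 and 0.15 for DRD2.

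A few genes moved between the libraries in Cluster 3 unlike in the sum. Across 4117 genes, this difference in log2 ratio spread by 0.21 (SD), of which counting error gives 0.15. LRFN2, a synaptic adhesion protein, had the lowest difference, -2.57 (-2.89 to -2.25). Its level was 0.888 in the library labelled shFoxP2 against 1.28 in shScr in Cluster 3, but 0.234 against 0.0885 in Cluster 1 and 1.23 against 0.175 in Cluster 2. CEMIP, which binds and breaks down hyaluronan, was next with -1.71, then the T-type calcium channel subunit CACNA1G with -1.38, RBMS3 with -1.13 and GLIS3 with -1.12. In these 4 genes Clusters 1 and 2 had a higher level in the library labelled shFoxP2, by log2 ratios from 0.65 to 2.58, and Cluster 3 had smaller ratios from 0.01 to 0.95. CACNB2, an auxiliary subunit of calcium channels, had the largest difference, 1.40 (1.19 to 1.61). Its level was 1.86 in the library labelled shFoxP2 against 1.60 in shScr in Cluster 3, but 0.808 against 1.964 in Cluster 1 and 0.552 against 0.911 in Cluster 2. TRPM3 (1.34), RSPO2 (0.98), ANKRD33B (0.94) and LDB2 (0.87) followed. With 1 library for each condition, birds, dissection and hairpin cannot be told apart in any of these ratios.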

How the data were processed

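Nuclei of Area X were profiled with 10x 3' chemistry, 1 library per condition. The deposited tables hold whole-number UMI counts per gene that the authors made with Cell Ranger, with each nucleus's cluster. Nuclei held 500 to 9997 UMIs. The genome build was not used and no sequences or positions are given. Counts of the 14289 shScr nuclei were identical in both deposited tables, which tied the 2 library codes of the combined table to the labels. Levels are summed UMIs per 10000. The sum of Clusters 1 and 2 used maximum-likelihood weights in each library (Python 3.11.15, numpy 2.4.6, scipy 1.17.1). Intervals of the log2 ratios over the sum and of differences between log2 ratios are normal approximations, those of levels, shares and library ratios exact, and all are at 95%. A library ratio sets a sum of 0 to 3 UMIs.

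Library depth was 42662731 UMIs in the library labelled shFoxP2 and 39179294 in shScr. Named are the 12 genes furthest above and below the sum, ranked by the weaker library (1 of those above is not reported here), the 5 each way whose library ratio differs most from the sum, and the listed genes. GUCY1A2 and VIP were picked after their values were seen. Members and lists were chosen with earlier results of these data known. Doublets were kept: the Scrublet threshold of scanpy 1.11.5 called 0 nuclei in the library labelled shFoxP2 and 991 in shScr, so the 8% with the highest scores (1036 and 1143) were left out in an alternative. The steps were tested on simulated data. Alternatives covered sources, depth, weights, minimums, fold, gene numbers and thinning.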

Additional observations from a re-analysis of the deposited data

Results flagged for a closer look

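CACNB2 had a log2 ratio of the library labelled shFoxP2 over shScr of 0.22 in Cluster 3, but -1.28 in Cluster 1 and -0.72 in Cluster 2, and was picked out because the clusters moved in opposite directions. LRFN2 was picked out for the same reason, with -0.53 in Cluster 3, 1.40 in Cluster 1 and 2.82 in Cluster 2. With 1 library per condition, the differences between the clusters were not tested.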

How the results depend on the processing

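No paired analysis was possible because each condition has 1 library. The values below are means of both libraries or counts. With all nuclei, the weight of Cluster 1 was 77.3%, the SD around the sum 0.44, and the calls 530 above and 407 below. With Clusters 1, 2, 4 and 5 as sources the weight of Cluster 1 was 39.9%, the SD 0.27, and the calls 155 above and 198 below. With Clusters 1, 2 and 4, chosen after seeing the data, these were 40.2%, 0.27, 155 and 199. Cluster 4 then took 60.6% of the UMIs in the library labelled shFoxP2 and 58.8% in shScr, 113 and 94 of the calls were shared with the sum of Clusters 1 and 2, and FOXP2 was below the sum, with log2 ratios of -1.66 and -1.74. Between the depth quartiles of Cluster 3 the weight was 82.1% and the SD 0.51. The mean over nuclei gave a weight of 81.6%. Without the 8% highest doublet scores, the weight was 78.8%, the SD 0.45, and the calls 537 above and 441 below. In that setting the median direct-side share was 22.5%, and DRD2 with FOXP2 was found in 7.96% of nuclei. Without the upper depth tertile, also chosen after seeing the data, the weight was 88.7%, the SD 0.53, the median direct-side share 19.3% (23.2% with all nuclei), and DRD2 with FOXP2 in 5.85% of nuclei (9.06% with all). At a minimum of 50 UMIs the calls were 845 and 679 and the SD 0.48, at 1000 UMIs 243, 174 and 0.46, and at 1.5-fold 276 and 134, since the number of genes or the fold changed. The SD of the library ratio, 0.35, was 0.47 at 50 UMIs and 0.29 at 1000. With 200 genes each way the direct-side share was 38.3%. DRD2 with FOXP2 was found in 18.6% of nuclei not thinned, 2.44% at 1000 UMIs and 19.5% at 3000 UMIs, where nuclei under 3000 UMIs were also left out. Of 164 values of the 23 named genes and the FOXP2 library ratio over the alternatives, 91 moved by less than their counting interval, 73 by more, and 0 turned direction. The 23 genes were chosen as the furthest from the sum in these same libraries, so that they kept their direction is not a test of them. All 23 moved by more than the interval in each fit with Cluster 4 as a source. With Clusters 1, 2 and 4 the 11 named genes above the sum lay at 0.01 (RIT2) to 1.77 (CHRM3) in the weaker library and the 12 below at -0.44 (FKBP5) to -1.09 (LAMA1), against 2.75 to 4.76 and -1.36 to -1.95 with Clusters 1 and 2. The limits are 1 library per condition, clusters drawn on the same counts, and low UMIs per nucleus.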
